A study of Mus musculus with 10 samples.

Results

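The Ms4a genes encode small proteins that cross the cell membrane several times, and they lie side by side in a single cluster of duplicated genes. The 6 described here, Ms4a4a, Ms4a4c, Ms4a6b, Ms4a6c, Ms4a6d and Ms4a7, were taken by symbol, with earlier results of these data known, and they are 6 of 55487 gene rows and 6 of the 19 rows whose symbol starts with Ms4a. They are also the 6 most abundant of those 19, so their high level is a description and no finding. The family includes Ms4a1, which encodes the B cell antigen CD20, and Ms4a2, which encodes the beta chain of the high-affinity IgE receptor of mast cells and basophils. Several of the others are known from monocytes and macrophages. MS4A4A and MS4A7 are used as markers of human tissue macrophages, and in mouse macrophages Ms4a4a associates with the fungal receptor dectin-1 (Clec7a).

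The libraries came from mice carrying a serine-to-alanine change of Ptpn22, the gene of the phosphatase Pep (S452A, 5 mice), and from mice with the wild-type gene (WT, 5 mice). One description of the study spells it S425A, while its title and the sample labels have S452A, and how the allele was made is not given in the labels. Mice of both genotypes were injected when 8 weeks old with MC38, a line of colon carcinoma cells from mouse. Tumours grew for 18 days and were dissociated with collagenase, and cells sorted as CD8+ T cells went into bulk RNA sequencing, with 1 library for each mouse number. Levels were deposited as TPM, a measure of transcript abundance per length in which every library has the same total.

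Set against their markers, the libraries did not hold mainly the cells they are labelled as. The summed level of 8 genes of the T cell receptor, its CD3 chains and CD8, led by Trbc2, Cd3g and Trbc1, was 14.96 to 135 TPM in S452A and 12.1 to 126 TPM in WT libraries. That of 8 macrophage genes was 17341 to 22930 TPM in S452A and 16486 to 23049 TPM in WT libraries, led by the apolipoprotein gene Apoe at 10641 ± 1361 TPM in S452A and 10587 ± 1976 TPM in WT (SD, n = 5 each), with the complement gene C1qb and the lipopolysaccharide co-receptor gene Cd14 next. Read depth cannot be recovered from TPM and is unknown. The libraries had 13677 to 14388 genes at 1 TPM or more. In such bulk samples fewer cells of a type and less RNA per cell cannot be told apart.

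The 19 Ms4a genes lie on chromosome 19, from 10962293 to 11640851 in GRCm38. The 6 members fall within 283.8 kb, with 8 Ms4a genes in that stretch. Ms4a7 lies at 11321039 to 11336146 on the minus strand, Ms4a4a at 11375523 to 11392790, Ms4a4c at 11404770 to 11427246, Ms4a6c at 11469366 to 11482192 and Ms4a6b at 11516512 to 11531256 on the plus strand, and Ms4a6d at 11586604 to 11604849 on the minus strand. All 6 are annotated as protein-coding, with coding regions of 654 bases in Ms4a6c to 804 bases in Ms4a7.

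The sequences before the starts of 2 pairs of paralogues are shown because long stretches of them are shared, and because Ms4a6b and Ms4a6c are also the pair whose levels went together most closely. RefSeq (GRCm38.p6) gave a start for 5 of the 6 members. The windows run from 250 bases before the RefSeq start, all on the plus strand, and stop at the first base that a GENCODE exon of the gene covers. Ms4a6c is at chr19:11469118-11469365, Ms4a6b at chr19:11518309-11518452, Ms4a4c at chr19:11407411-11407660 and Ms4a4b, which is no member, at chr19:11443308-11443552. Capitals mark runs of at least 12 bases that are identical in the other gene of the pair.
Ms4a6c: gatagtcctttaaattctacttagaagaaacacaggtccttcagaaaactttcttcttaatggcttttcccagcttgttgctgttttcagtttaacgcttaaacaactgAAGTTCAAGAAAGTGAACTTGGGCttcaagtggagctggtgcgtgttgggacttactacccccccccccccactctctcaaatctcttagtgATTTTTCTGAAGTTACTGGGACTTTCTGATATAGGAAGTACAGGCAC
Ms4a6b: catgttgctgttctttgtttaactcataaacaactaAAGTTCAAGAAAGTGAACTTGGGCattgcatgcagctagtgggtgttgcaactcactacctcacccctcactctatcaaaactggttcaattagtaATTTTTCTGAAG
Ms4a4c: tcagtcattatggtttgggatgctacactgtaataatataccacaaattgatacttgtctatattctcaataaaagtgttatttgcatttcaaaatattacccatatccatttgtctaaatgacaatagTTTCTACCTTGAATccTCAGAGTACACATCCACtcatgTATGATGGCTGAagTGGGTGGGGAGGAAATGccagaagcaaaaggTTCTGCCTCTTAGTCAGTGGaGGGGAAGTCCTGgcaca
Ms4a4b: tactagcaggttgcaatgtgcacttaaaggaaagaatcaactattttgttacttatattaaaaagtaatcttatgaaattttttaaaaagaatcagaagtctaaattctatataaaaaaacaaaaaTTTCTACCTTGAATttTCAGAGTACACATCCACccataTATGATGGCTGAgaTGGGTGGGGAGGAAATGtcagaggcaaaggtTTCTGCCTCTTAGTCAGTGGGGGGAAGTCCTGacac

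Ms4a6c and Ms4a6b shared 2 such runs, of 24 and 48 bases. The 48-base run begins 49 bases before the RefSeq start of Ms4a6c and 118 bases before that of Ms4a6b, where all but its first bases lie in an annotated first exon and are not printed. Ms4a4c and Ms4a4b shared 6 runs, the longest of 20 bases. Among the 9 tested Ms4a genes with a window, no other pair shared a run of this length. The RefSeq starts of Ms4a4c and Ms4a6b lie 2891 and 2047 bases inside the first base of the GENCODE gene, and only the windows before the RefSeq starts were searched.

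Motifs were sought on both strands in the 250 bases before each RefSeq start. The interferon-stimulated response element, searched as GAAA, any 2 bases and GAAA, was found in 0 of the 5 members and in 2.98% of 32851 promoter windows of all genes, and the PU.1 motif GAGGAAGT in 0 of 5 and 2.44%. The shorter forms GAAANNGAA and AGGAAGT, which every match of these 2 motifs also contains, were added after the sequences had been read. GAAANNGAA was in Ms4a6b, Ms4a6c and Ms4a7 and in 7.13% of all windows, and AGGAAGT in Ms4a6b and Ms4a6c and in 7.69%. The first shared run of Ms4a6b and Ms4a6c holds GAAAGTGAA, a match of GAAANNGAA, and the second holds AGGAAGT. The NF-kB motif, searched as GGG, any 2 bases and TTTCC, was in Ms4a4a alone among the 5 members and in 1.41% of windows. The motifs TGANTCA of AP-1 (6.75% of windows), TTGCNNAA of C/EBP (9.56%) and TATAAA (12.4%) were in none of the 5.

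The members were among the more abundant transcripts of these libraries, and they spanned a wide range of levels. Among the 13930 genes tested, those at 1 TPM or more in at least 5 libraries, the members lay between percentiles 82.0 and 98.1 in every library. Their summed level was 1750 ± 361 TPM in S452A and 1759 ± 115 TPM in WT libraries (SD, n = 5 each). On average Ms4a7 and Ms4a4c together made up more than the other 4 members did, at 27.1 ± 2.98% and 29.1 ± 3.61% of the summed level in S452A and 31.2 ± 2.30% and 27.1 ± 0.94% in WT. S452A library 1 was the exception, with 328 and 315 of 1355 TPM for these genes.

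**Figure D1:**
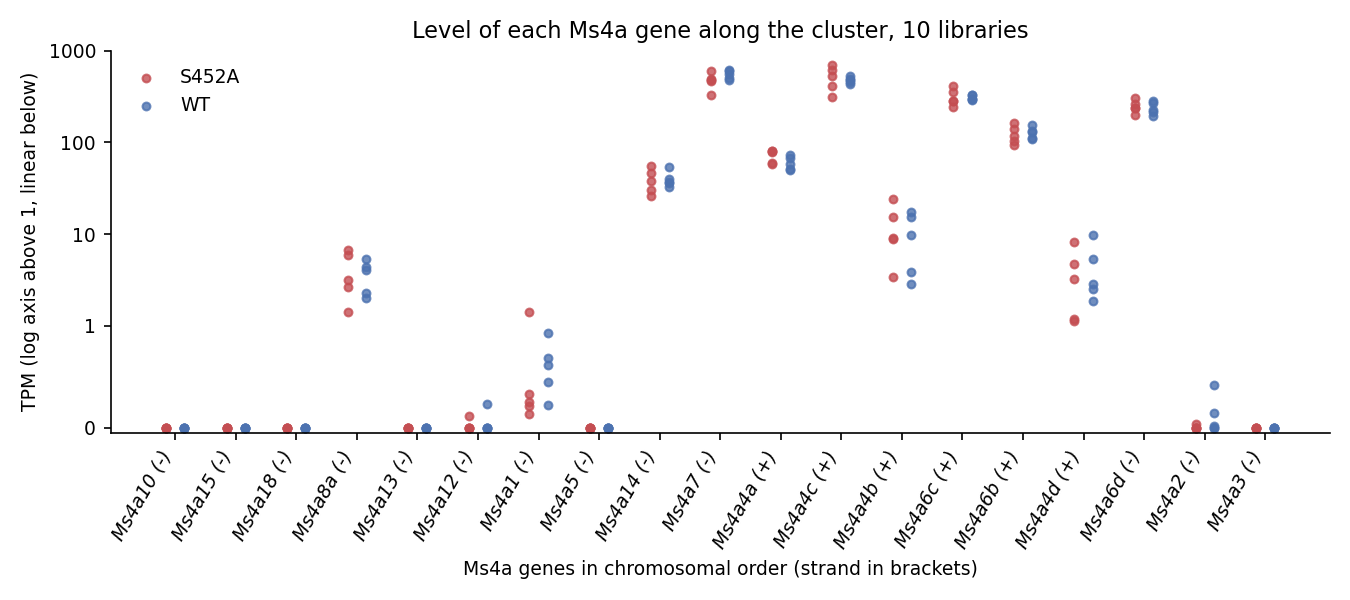
Level in TPM (log axis above 1, linear below) of the 19 Ms4a genes in chromosomal order, with 1 point per library, S452A to the left of WT for each gene. Ms4a7, Ms4a4c, Ms4a6c, Ms4a6d and Ms4a6b lie highest, 6 genes are listed at 0 in every library, and the B cell gene Ms4a1 and the mast cell gene Ms4a2 stay at or below 1.41 TPM.

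Ms4a7, a marker gene of mature macrophages, had 328, 477, 488, 471 and 596 TPM in S452A libraries 1 to 5, against 552, 596, 503, 479 and 614 TPM in WT libraries 1 to 5. S452A library 1 was the lowest of all 10, and the genotypes overlapped. The mean was 472 ± 95.4 TPM in S452A and 549 ± 58.0 TPM in WT (SD, n = 5 each), which differed by -0.24 in log2(TPM + 1) (S452A minus WT, SE 0.14, adjusted p = 0.952 with limma).

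Ms4a4c, a mouse paralogue of Ms4a4a, had 315, 536, 624, 414 and 696 TPM in S452A libraries 1 to 5, against 476, 455, 489, 436 and 524 TPM in WT libraries 1 to 5. The WT libraries sat inside the range of the S452A libraries, which held both the lowest and the highest values. The highest S452A library was 2.21 times the lowest, and the highest WT library 1.20 times the lowest. The log2 difference of the means was 0.07 (SE 0.18, limma adjusted p = 0.977).

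Of the Ms4a6 paralogues, Ms4a6c had 287, 284, 359, 241 and 413 TPM in S452A libraries 1 to 5, against 329, 288, 298, 296 and 333 TPM in WT libraries 1 to 5. Here too the WT values fell within the S452A range, with S452A library 4 lowest and library 5 highest. The log2 difference was 0.01 (SE 0.13, limma adjusted p = 0.997).

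Ms4a6d, reported to act with the complement receptor Vsig4 in mouse macrophages, had 239.8, 235, 262, 201 and 303 TPM in S452A libraries 1 to 5, against 196, 215, 228, 266.5 and 286 TPM in WT libraries 1 to 5. The spread was alike in both genotypes and the values overlapped throughout. The log2 difference was 0.06 (SE 0.13, limma adjusted p = 0.972).

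Ms4a6b, known from mouse T cells as well as macrophages, had 105, 118, 140.5, 94.6 and 163 TPM in S452A libraries 1 to 5, against 154, 111, 130.5, 109 and 132 TPM in WT libraries 1 to 5. S452A library 4 was lowest and S452A library 5 highest, with every WT library between them. The log2 difference was -0.05 (SE 0.15, limma adjusted p = 0.979).

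Ms4a4a was the least abundant member and the one with the largest positive difference. It had 80.5, 57.8, 78.8, 59.2 and 79.9 TPM in S452A libraries 1 to 5, against 49.96, 51.5, 57.7, 72.6 and 66.8 TPM in WT libraries 1 to 5. S452A libraries 1, 3 and 5 lay above every WT library, while S452A libraries 2 and 4 lay among them. The mean was 71.2 ± 11.7 TPM in S452A and 59.7 ± 9.78 TPM in WT (SD, n = 5 each), and the log2 difference was 0.25 (SE 0.14, limma adjusted p = 0.952).

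**Figure D2:**
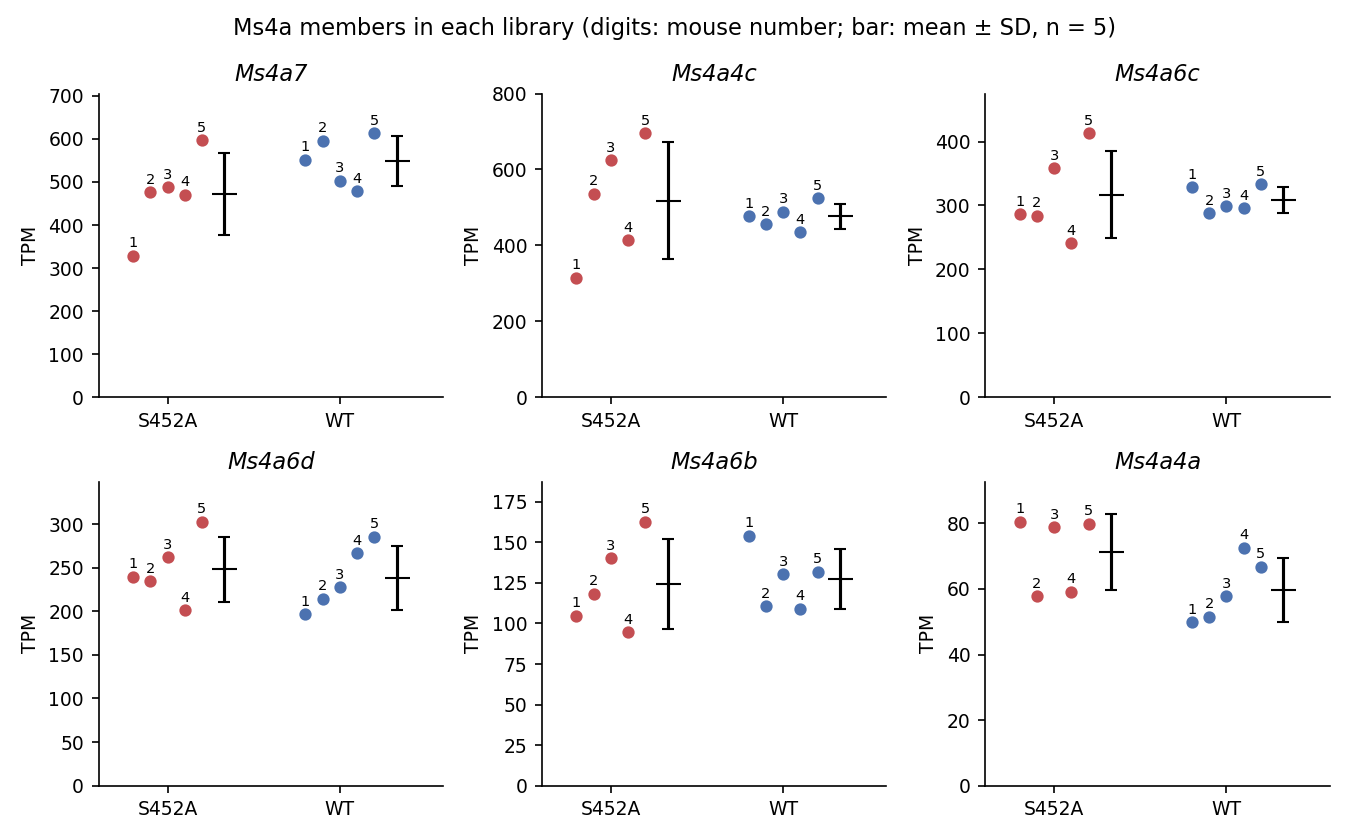
TPM of the 6 members in each library, with a panel per gene and its own axis from 0; points are libraries with their mouse number, and bars are mean ± SD of 5. S452A and WT overlap in every panel, and the S452A libraries of Ms4a4c run from 315 to 696 TPM against 436 to 524 TPM in WT.

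The order of the levels was nearly the same in every library. Ms4a7 and Ms4a4c did not differ beyond their spread, with Ms4a7 above Ms4a4c by 0.05 ± 0.23 on the log2 scale (SD, 10 libraries) and higher in 7 of 10. Ms4a7 was the higher of the pair in 2 of 5 S452A and 5 of 5 WT libraries. Every later step of the order held in 10 of 10 libraries. Ms4a4c was above Ms4a6c by 0.65 ± 0.21, Ms4a6c above Ms4a6d by 0.36 ± 0.17, Ms4a6d above Ms4a6b by 0.95 ± 0.26 and Ms4a6b above Ms4a4a by 0.93 ± 0.34 in log2 level.

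No member passed the test between genotypes. Of the 6 members, 0 passed the test in S452A against WT (limma, adjusted p under 0.05), where 1 of 13930 genes, or 0.00718%, did. That gene was Gm36079, a predicted gene outside the family, which was listed at 0 in every WT library. The p-values measure the spread between these libraries, each labelled with its own mouse number. At an unadjusted p under 0.05 there were 0 of 6 members and 4.74% of all tested genes, and the members' smallest unadjusted p was 0.108 with limma, 0.151 with an exact permutation test and 0.0952 with an exact Wilcoxon rank-sum test. With both exact tests 0 of 13930 genes passed. Their smallest possible p with 5 against 5 libraries is 0.00794. Adjustment over 13930 genes leaves that above 0.05 unless very many genes reach it, so these tests could hardly let a gene pass. The genotypes did not overlap for 0 of 6 members and for 0.646% of all tested genes. The median log2 difference was 0.035 over the members and -0.0167 over all tested genes.

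The data bound these differences rather than show equal levels. The 95% interval was within 2-fold for 6 of 6 members and for 86.9% of all tested genes. It ran from -0.06 to 0.56 for Ms4a4a and from -0.55 to 0.08 for Ms4a7 on the log2 scale. It was widest for Ms4a4c, at -0.34 to 0.47. Without S452A library 1 the difference of Ms4a7 was -0.11, and without S452A library 5 that of Ms4a4c was -0.06. Neither passed.

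**Figure D3:**
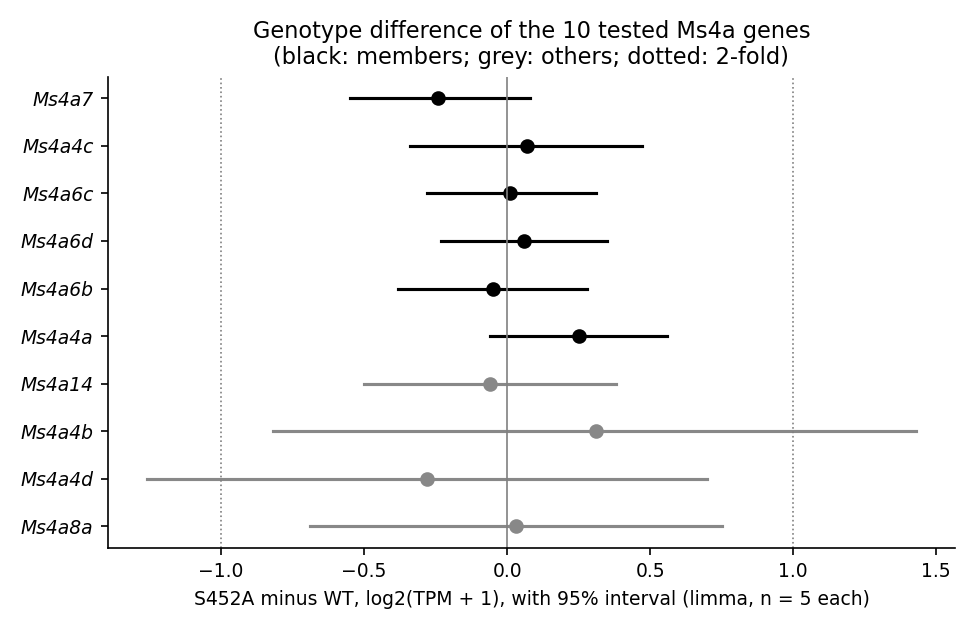
S452A minus WT difference in log2(TPM + 1) with its 95% interval (limma, n = 5 each) for the 6 members (black) and the other 4 tested Ms4a genes (grey), with 2-fold marked by dotted lines. Every interval includes 0, and those of the members stay within 2-fold.

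Ratios between members within a library do not depend on the library total, and they were computed after the data had been seen. Over all 15 pairs the genotypes overlapped in every ratio. The widest gap was that of Ms4a4a and Ms4a7, whose differences had opposite signs. Ms4a7 was 4.08, 8.26, 6.20, 7.96 and 7.47 times Ms4a4a in S452A libraries 1 to 5, against 11.1, 11.6, 8.72, 6.60 and 9.18 times in WT libraries 1 to 5. The log2 ratio of Ms4a4a to Ms4a7 was -2.72 ± 0.42 in S452A and -3.21 ± 0.32 in WT (SD, n = 5 each). WT library 4 lay among the S452A libraries in this ratio.

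The spread between mice in each genotype was not tested and is given as a description. The SD of log2(TPM + 1) was larger in S452A for 5 of 6 members, the exception being Ms4a6d, and for 58.7% of all tested genes. For Ms4a4c it was 0.46 in S452A and 0.10 in WT, and for Ms4a6c 0.31 in S452A and 0.10 in WT. For Ms4a7 it was 0.31 in S452A and 0.15 in WT, for Ms4a6b 0.31 in S452A and 0.20 in WT, and for Ms4a4a 0.24 in S452A and 0.23 in WT. S452A library 5 was the highest of the 10 libraries for 4 members, and S452A library 1 the lowest for Ms4a7 and Ms4a4c. The summed level of the members was 2251 TPM in S452A library 5 and 1355 TPM in S452A library 1, against 1659 to 1956 TPM in the WT libraries. In library 1, Ms4a4a was at its highest of the 10 while Ms4a7 and Ms4a4c were at their lowest.

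**Figure D4:**
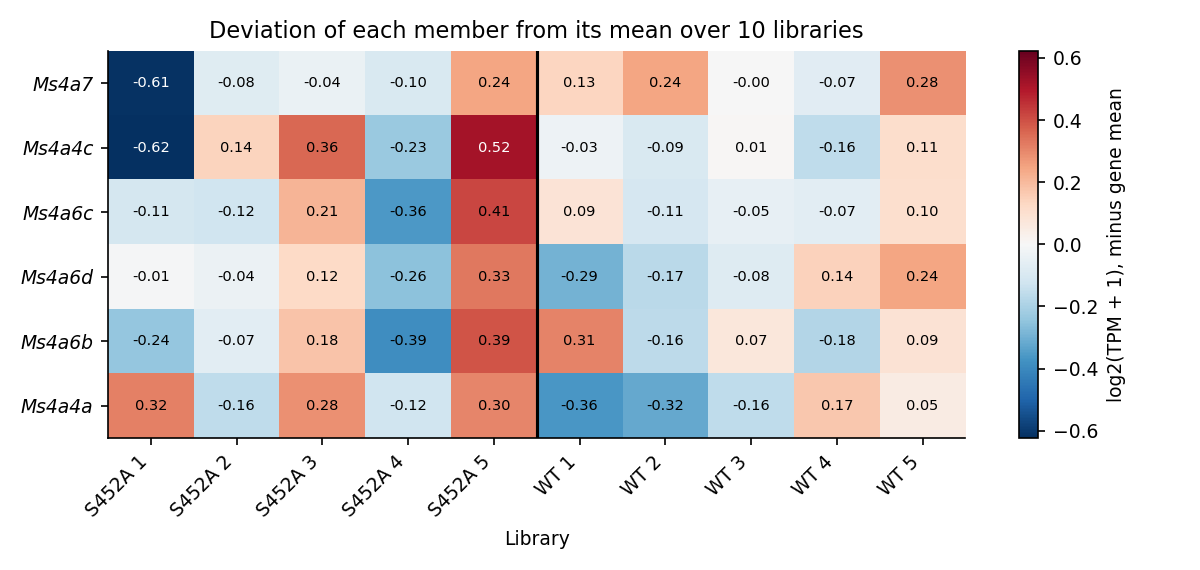
Deviation of each member from its own mean over the 10 libraries, in log2(TPM + 1), with members in rows and libraries in columns. All 6 members are above their mean in S452A library 5 (0.24 to 0.52), and in S452A library 1 Ms4a7 and Ms4a4c are low (-0.61 and -0.62) while Ms4a4a is high (0.32).

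Across libraries, the levels of Ms4a6b and Ms4a6c went together. The other pairs did not pass by Pearson's r with all libraries on the log2 scale. Pearson's r of log2(TPM + 1) over the 10 libraries was positive for 14 of 15 pairs, with a median of 0.504. The 15 pairs share the same 6 genes and so are not independent. Over all tested genes at 10 TPM or more on average, the median r with a single member was between -0.0593 and 0.037. Between 4.30 and 9.17% of these genes had r over 0.5 with a single member. Without S452A library 5, r between members was positive for 11 pairs, with a median of 0.324, and 2 pairs had an unadjusted permutation p under 0.05. With all 10 libraries, 1 pair passed by r after adjustment over the 15 pairs and 6 had an unadjusted p under 0.05 (2-sided permutation test, 100000 resamples). That pair was Ms4a6b and Ms4a6c, with r = 0.903 (permutation p = 0.00033, adjusted p = 0.00495) and rho = 0.879 (permutation p = 0.00149). Without S452A libraries 4 and 5, the farthest from the median of Ms4a6b, r was 0.793, and with the genotype means removed it was 0.912 (adjusted permutation p = 0.0039). The 5 libraries of a genotype are too few for r within it.

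Whether other pairs passed depended on the setting. Besides Ms4a6b and Ms4a6c, 0 pairs passed by Pearson's r with all libraries on the log2 scale. By Spearman's rho, Ms4a4c with Ms4a6b also passed (rho = 0.83, adjusted permutation p = 0.0345). The counts that follow are by r. With the genotype means removed 5 pairs passed in all, the other 4 being Ms4a4a with Ms4a6d and Ms4a4c with Ms4a6b, Ms4a6c and Ms4a7 (adjusted permutation p 0.0243 to 0.0478). With the macrophage gene level removed 4 passed, and on the linear TPM scale 3. These p-values are approximate where a mean or a covariate was removed.

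With all libraries, Ms4a4c had r = 0.756 with Ms4a6b and 0.745 with Ms4a6c (adjusted permutation p = 0.0546 and 0.0606). The rho of these pairs was 0.83 and 0.697 (adjusted permutation p = 0.0345 and 0.076). Their r was 0.649 and 0.756 without S452A libraries 1 and 5, the farthest from the median of Ms4a4c. Ms4a4a had its highest r with Ms4a6d (r = 0.780, rho = 0.758, adjusted permutation p = 0.0546, and 0.818 without S452A libraries 1 and 5). With Ms4a7 its r was -0.381 (permutation p = 0.29, adjusted p = 0.362), the only negative value. The relation of Ms4a4c and Ms4a7 (r = 0.696, adjusted permutation p = 0.0797) depended more on S452A library 1 than on S452A library 5. Its r was 0.309 without library 1 alone, 0.657 without library 5 alone and 0.0313 without both. With both of these libraries left out, a step chosen after the data were seen, r of Ms4a6b and Ms4a6c was 0.876 and 0 pairs passed (adjusted permutation p = 0.0966).

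**Figure D5:**
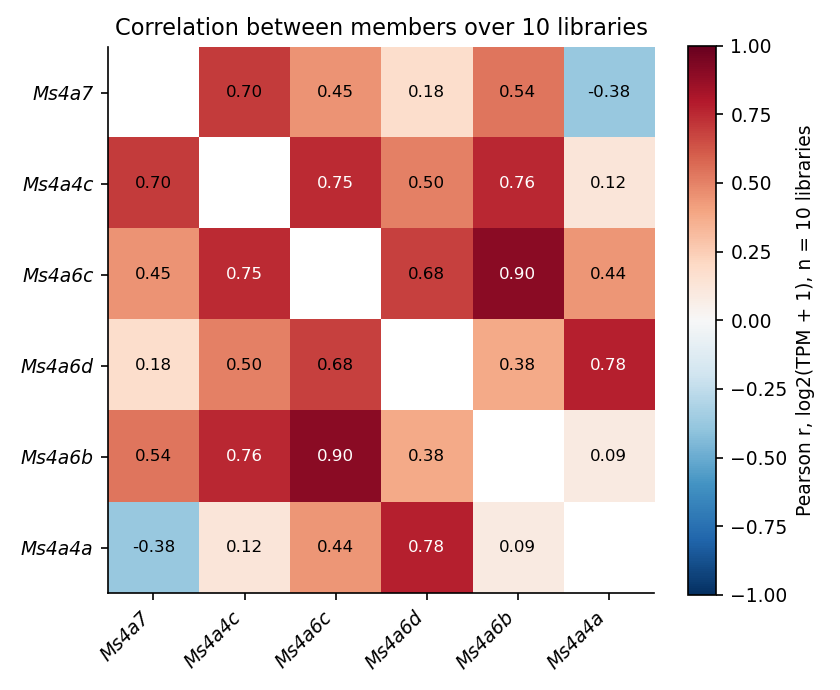
Pearson's r of log2(TPM + 1) between the 6 members over the 10 libraries of both genotypes, in colour and digits. The highest value is that of Ms4a6b and Ms4a6c (0.90), and Ms4a4a has 0.78 with Ms4a6d and 0.44 or less with the others.

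Pairs closer in coding sequence did not always have the higher r. Identity over the coding sequence, in which gaps count as differences, was 46.9 to 79.9% among the 15 pairs, with a median of 50.8%. By this measure Ms4a6b and Ms4a6d were the most alike, at 79.9%, with r = 0.382 (permutation p = 0.275, adjusted p = 0.362). Ms4a6b and Ms4a6c were 74.3% identical, with coding regions of 735 and 654 bases, against 744 bases in Ms4a6d. Over the longest aligned stretch of their transcripts the order was the reverse. Ms4a6b and Ms4a6d were 82.5% identical over 933 bases, and Ms4a6b and Ms4a6c 86.1% over 1234 bases. Ms4a4a and Ms4a6d, with r = 0.780 (adjusted permutation p = 0.0546), were 48.8% identical and lie 193.8 kb apart, whereas Ms4a4a and its neighbour Ms4a4c, 12 kb apart and 59.9% identical, had r = 0.118 (permutation p = 0.75, adjusted p = 0.795). This last value rested on S452A library 1, without which r was 0.634 (adjusted permutation p = 0.144). The r of Ms4a6b and Ms4a6d was 0.114 without S452A library 5. How reads shared between paralogues were assigned was not tested. No transcript of another gene matched a member at 95% identity or more over at least 0.8 of the shorter transcript, and Ms4a6b and Ms4a6c transcripts were 86.1% identical over 1234 bases. BE692007, at 6.41 ± 1.79 TPM in S452A and 6.81 ± 1.16 TPM in WT (SD, n = 5 each), overlaps Ms4a6c on the opposite strand, with 990 bases at 95% identity or more. The kit marks strand per the labels' protocols, but no source used here says whether counting used it. Whether reads of these 2 genes were kept apart is therefore unknown.

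The covariation was set beside the levels of marker genes, in 30 relations of the 6 members with 5 marker lists, a step added after the data were seen. After adjustment over the 30, 0 passed with Pearson's r, and 3 had an unadjusted permutation p under 0.05. All 3 were negative and were with the mean of 5 resident-like macrophage genes (Mrc1, Cd163, Folr2, Lyve1 and Cbr2). For Ms4a6b r was -0.856 (adjusted permutation p = 0.0615) and rho -0.879 (adjusted permutation p = 0.0468), for Ms4a6c r was -0.786 (adjusted permutation p = 0.0992, rho -0.673) and for Ms4a4c r was -0.70 (adjusted permutation p = 0.226, rho -0.83). Without the 2 libraries farthest from the median of that marker mean these were -0.805, -0.726 and -0.557. The mean of the 8 macrophage genes had r between -0.143 and 0.126 with the 6 members, and that of the 8 T cell genes between 0.138 and 0.596 (smallest adjusted permutation p = 0.867 and 0.438). With the 6 monocyte genes r was between -0.209 and 0.525 (smallest adjusted permutation p = 0.568). With the type I interferon response list r was between -0.0253 and 0.508, the highest being that of Ms4a4c (adjusted permutation p = 0.568, rho = 0.261), which was 0.143 without S452A libraries 1 and 5. The part of any of these markers in the covariation of the members was not tested beyond this.

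The genes whose levels were most like those of a member were sought among 6776 genes at 10 TPM or more on average, by Pearson's r over the 10 libraries. Predicted genes and those with clone names were not eligible. For Ms4a4c they were Xaf1 (0.968), Phf11b (0.932) and Ifi213 (0.926). For Ms4a6c they were Ms4a6b (0.903), Tyrobp, the gene of an adaptor of myeloid receptors (0.876), and Hat1 (0.875). For Ms4a6b they were Ppp6c (0.927), Tma7-ps (0.916) and Tma7 (0.911). For Ms4a7 they were Rpl36a-ps3 (0.944), Znhit2 (0.914) and Gadd45g (0.887). For Ms4a6d they were Grsf1 (0.916), Tmed5 (0.901) and Slc30a7 (0.861), and for Ms4a4a Ube2n (0.922), Eif4a-ps4 (0.895) and Ctdsp2 (0.875). For the mean of the 6 standardized members they were Ifi213 (0.931), Evi2a (0.883) and Tyrobp (0.877). These values are the highest of 6776 for a single member and of 6771 for the mean of the 6, and carry no p, being a description. Without S452A libraries 1 and 5, r was still 0.968 for Xaf1 with Ms4a4c and was 0.66 for Znhit2 with Ms4a7. Over all tested genes at 10 TPM or more on average, predicted and clone-named genes included, the median r with a single member was between -0.0593 and 0.037. The genes named with the ending ps are annotated pseudogenes, whose reads may be shared with a parent gene.

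Outside the 6 members most of the family was low or listed at 0, with Ms4a14 the exception. Of the other 13 Ms4a genes, 4 passed the expression filter, 3 others had a value above 0 in some library, and 6 (Ms4a3, Ms4a5, Ms4a10, Ms4a13, Ms4a15 and Ms4a18) were listed at 0 in all 10 libraries. Ms4a3 is known from granulocyte and monocyte progenitors. Ms4a14, which lies next to Ms4a7, was at 39.2 ± 12.1 TPM in S452A and 40.0 ± 8.53 TPM in WT (SD, n = 5 each). At up to 55.9 TPM it overlapped the range of Ms4a4a. Ms4a4b, the T cell gene that is 91.8% identical to Ms4a4c over the coding sequence, was at 12.2 ± 7.96 TPM in S452A and 9.92 ± 6.63 TPM in WT. Its libraries ran from 3.41 to 24.2 TPM in S452A and from 2.83 to 17.6 TPM in WT, a wider relative range than that of any member.

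Ms4a8a, reported in alternatively activated mouse macrophages, was at 3.96 ± 2.23 TPM in S452A and 3.63 ± 1.43 TPM in WT, and Ms4a4d at 3.68 ± 2.92 TPM in S452A and 4.47 ± 3.20 TPM in WT (SD, n = 5 each). Ms4a1 was at most 1.41 TPM in S452A and 0.93 TPM in WT, and Ms4a2 at most 0.04 TPM in S452A and 0.42 TPM in WT. Ms4a12 was at most 0.11 TPM in S452A and 0.23 TPM in WT. The log2 differences of Ms4a14, Ms4a4b, Ms4a4d and Ms4a8a were -0.06, 0.31, -0.28 and 0.03, and 0 of these 4 passed (limma adjusted p at least 0.964, and 0 at an unadjusted p under 0.05). Those of Ms4a4b and Ms4a4d were not bounded within 2-fold (-0.82 to 1.43 and -1.26 to 0.70).

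Other genes lie among the Ms4a genes of the cluster, and the nearest tested genes outside it are Ccdc86 and Mrpl16. Ccdc86, 13 kb before the cluster, was at 13.95 ± 2.995 TPM in S452A and 14.8 ± 2.02 TPM in WT, and Mrpl16, of the mitochondrial ribosome, 129.5 kb after it, at 27.0 ± 4.03 TPM in S452A and 31.7 ± 3.36 TPM in WT (SD, n = 5 each). AW112010, annotated as a long noncoding RNA gene between Ms4a18 and Ms4a8a and named here after its values were seen, was at 160.6 ± 51.3 TPM in S452A and 168 ± 52.1 TPM in WT. The related genes Tmem176a and Tmem176b, outside the cluster, were at 16.4 ± 5.50 and 30.2 ± 5.78 TPM in S452A and 15.5 ± 5.28 and 38.0 ± 8.87 TPM in WT, with log2 differences of 0.09 and -0.31 that did not pass (limma adjusted p = 0.979 and 0.952).

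Dectin-1, its signalling chain and reported partners of Ms4a proteins made up a further list. Clec7a, the gene of dectin-1, was at 208 ± 74.7 TPM in S452A and 155 ± 40.5 TPM in WT, differing by 0.39 in log2 level (SE 0.23, limma adjusted p = 0.952). Trem2, a lipid-sensing receptor, was at 318 ± 39.9 TPM in S452A and 296 ± 57.8 TPM in WT, and Tyrobp, its adaptor, at 1032 ± 122 TPM in S452A and 1017 ± 76.9 TPM in WT (SD, n = 5 each). Fcer1g, the gene of another adaptor of activating receptors, was at 979 ± 107 TPM in S452A and 1051 ± 111 TPM in WT. Vsig4 was listed at 0 in all S452A libraries and was at most 0.31 TPM in WT. Of the 10 tested genes of the dectin-1 and partner list, 0 passed. An unadjusted limma p under 0.05 was found for 4.74% of all tested genes and for 1 of these 10. That gene, named after its values were seen, was Malt1, a protease of the signalling complex below dectin-1, at 161 ± 33.3 TPM in S452A and 114 ± 21.5 TPM in WT (log2 difference 0.49, SE 0.16, limma adjusted p = 0.952). The median log2 difference of the 10 was 0.12, beside -0.0167 over all tested genes.

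The remaining lists stand for responses and cell types in which members are known or which the sort could hold. Of 22 type I interferon response genes, 15 were higher and 7 lower on average in S452A, 0 passed and 5 had an unadjusted limma p under 0.05, with a median log2 difference of 0.16. Over all tested genes, 46.6% were higher in S452A and 4.74% had an unadjusted p under 0.05. The most abundant of them, Cxcl10, Isg15 and Ifi27l2a, differed by 0.12, 0.22 and -0.16. The 6 monocyte genes were led by Ly6c2, Plac8 and Ccr2, with Ly6c2 at 481 ± 285 TPM in S452A and 379 ± 152 TPM in WT (SD, n = 5 each). Of these 6, 5 were higher and 1 lower on average in S452A, with a median log2 difference of 0.19. Among them 0 passed and 0 had an unadjusted limma p under 0.05. Of the 5 tested resident-like macrophage genes, led by Folr2, Cbr2 and Mrc1, with Folr2 at 47.0 ± 22.3 TPM in S452A and 50.2 ± 13.9 TPM in WT, 5 had a negative difference, and 0 passed or had an unadjusted limma p under 0.05. Their summed level, with Timd4, was 43.0 to 146 TPM in S452A and 53.8 to 153 TPM in WT libraries. The summed level of 6 B cell genes, led by Cd79b, Cd22 and Cd79a, was 5.25 to 24.4 TPM in S452A and 8.23 to 16.1 TPM in WT, and that of 6 mast cell and basophil genes, led by Mcpt4, Cpa3 and Kit, 6.32 to 12.5 TPM in S452A and 4.16 to 11.4 TPM in WT, with Mcpt8 at 0 throughout.

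The last lists stand for other cells of a tumour. The summed level of 6 neutrophil genes, led by Csf3r, S100a9 and S100a8, was 30.9 to 68.2 TPM in S452A and 31.9 to 53.3 TPM in WT, with Ly6g at 0 throughout. That of 6 dendritic cell genes, led by Ccr7, Zbtb46 and Xcr1, was 52.6 to 86.7 TPM in S452A and 40.4 to 79.0 TPM in WT. That of 5 natural killer cell genes, led by Gzma, Eomes and Klre1, was 1.03 to 7.52 TPM in S452A and 0.75 to 5.12 TPM in WT, and that of 5 epithelial and tumour genes, led by Cdh1, Krt18 and Epcam, 2.42 to 5.22 TPM in S452A and 1.77 to 5.01 TPM in WT. The 6 fibroblast genes, led by Dcn, Col3a1 and Postn, summed to 72.4 to 220.3 TPM in S452A and 159.6 to 315.5 TPM in WT, and all 6 had a negative difference, with 0 that passed and 2 at an unadjusted limma p under 0.05, where 46.6% of all tested genes were higher in S452A and 4.74% had such a p. Their part in the differences of the members was not tested.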

How the data were processed

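Bulk RNA sequencing of 10 libraries, each with its own mouse number, was used. A strand-marking kit and 40 ng of input served for library preparation, per the labels' protocols. STAR 2.7.9a, RSEM 1.3.0 and GRCm38.p6 are named in the submitters' processing notes. No annotation release is named in the sources used here. Values were deposited by the authors as TPM, in columns that each sum to about 1000000. Counts cannot be had from TPM, so no detection floor or counting interval is given, and a rise of one class of transcripts lowers the TPM of others.

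Members, gene lists and tests were chosen with earlier results of these data known. The text names the members, the other Ms4a rows and Tmem176a and Tmem176b, the 3 most abundant genes of each list, Clec7a, Trem2, Vsig4 and Tyrobp, the 3 genes most like each member and the flanking genes. Of 55487 rows, 55394 matched GENCODE M21 (GRCm38) without the version.

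The 13930 genes that reached 1 TPM in 5 or more libraries were fitted as log2(TPM + 1) in R 4.3.3 with limma 3.58.1 (trend, 2-sided, Benjamini-Hochberg adjusted over all tested genes). Differences are S452A minus WT, and this scale understates changes of low genes. The fit was tested on simulated data. Ratios, relations with marker levels, and the setting without S452A libraries 1 and 5 were added after the data were seen. Exact permutation tests with 5 against 5 cannot go below p = 0.00794. Transcripts were compared with blastn 2.17.0 and coding sequences with Biopython 1.88. Correlations, ratios and figures were made in Python 3.11.15 with pandas 2.3.3, numpy 2.4.6, matplotlib 3.10.9 and scipy 1.17.1. Alternatives were pseudocounts of 0.1 and 5, other filters, 1 library left out at a time, a block for mouse number, 2 rescalings, robust moderation, the macrophage gene level as a covariate and rank and permutation tests.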

Additional observations from a re-analysis of the deposited data

How the results depend on the processing

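No member passed under any of the 21 alternatives run. Both exact tests are among these, and with a smallest possible p of 0.00794 they could hardly let a gene pass after adjustment. With 1 library left out at a time, the difference ranged from 0.19 to 0.32 for Ms4a4a, -0.33 to -0.11 for Ms4a7, -0.06 to 0.23 for Ms4a4c, -0.15 to 0.04 for Ms4a6b, -0.09 to 0.1 for Ms4a6c and -0.01 to 0.13 for Ms4a6d, so that the sign held for Ms4a4a and Ms4a7 and turned for the other 4. Among the other alternatives the sign turned only for Ms4a6c, at -0.01 with quantile normalization; the cause was not tested. The smallest adjusted p over all alternatives was 0.738, for Ms4a4a.

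Over all genes, 1 passed in the limma fit and 0 with a filter of 5 TPM, the exact Wilcoxon rank-sum test or the exact permutation test (460, 445 and 621 at an unadjusted p under 0.05), and 1 with each library left out. The filter of 5 TPM tests fewer genes. The smallest p of the exact tests is 0.00794, too large to pass after adjustment unless very many genes reach it. Same-numbered mice did not deviate together (correlations of -0.148 to 0.074, and none matched its own number best). This cannot exclude that mice of one number shared a litter or a day, which the labels do not state. With the replicate block 1 gene passed, the 6 differences stayed at 0.25, 0.07, -0.05, 0.01, 0.06 and -0.24 in the order Ms4a4a, Ms4a4c, Ms4a6b, Ms4a6c, Ms4a6d and Ms4a7, and adjusted p was at least 0.985.

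The number of pairs covarying by Pearson's r was 1 with all libraries and depended on the setting. It was 3 on the linear TPM scale, 5 with the genotype means removed, 4 with the macrophage gene level removed, 1 to 3 with 1 library left out, and 0 without S452A libraries 1 and 5; the cause was not tested. It was 3 without S452A library 1 or without WT library 1. Fewer libraries enter when some are left out, and the permutation p of values with a mean or a covariate removed is approximate. Ms4a6b and Ms4a6c passed with the genotype means or the macrophage gene level removed, with quantile normalization and without S452A library 1 or 5 alone.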
